A study of Mus musculus with 4 samples.

Results

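Lysosome and autophagy genes are described here by the accessible chromatin around them. The 35 genes were chosen by function, but with earlier results of these data known. Of them, 14 encode lysosomal hydrolases and related enzymes, and 9 encode lysosomal membrane proteins, lipid carriers and cofactors. A further 2 encode transcription factors of lysosomal genes, and 10 encode autophagy proteins. Accessible regions were counted in each gene body and within 20 kb on either side, which gave 239 regions of 77914 in the whole series, and each of the 35 genes had at least 2. The cells were MPP3, multipotent bone marrow progenitors biased towards granulocytes and monocytes, from WT-iMOS mice 3 months of age. ATAC-seq, which tags open chromatin by transposase insertion, was run on 2 libraries whose genotype label is WTiMOS_T1 and 2 labelled WTiMOS_T2 (called T1 and T2). The sources do not define T1, T2 or iMOS, nor do they tie replicates to separate animals, so the spread between replicates may be technical. The files are the authors' peak lists on mm10, with no read counts, so depth is unknown and no test across libraries was made: 2 libraries against 2 allow no exact two-sided p below 0.33.

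Lysosomes are acidic organelles in which hydrolases break down proteins, lipids and glycans. Autophagy encloses cytoplasm in a double membrane that then fuses with lysosomes, and haematopoietic stem and progenitor cells depend on it to clear mitochondria and damaged protein. TFEB and TFE3 are related basic helix-loop-helix factors that bind an E-box element (CACGTG, in the extended form TCACGTGA) upstream of many lysosomal genes. In monocytes and macrophages this gene programme is strongly used.

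The extended element was searched for in the windows from 250 bases before to 50 after each start site that RefSeq lists on GRCm38.p6, the assembly of mm10. Such windows were found for 28 of the 35 genes. Both motifs read the same on either strand, and every TCACGTGA also counts as a CACGTG. TCACGTGA was present at 5 of the 28 genes (17.9%), Atg3, Ctsa, Ctsd, Gla and Mcoln1, against 1.41% of 17492 protein-coding genes. CACGTG was present at 11 (39.3%) against 8.91%. The genes were picked by function, and the TFEB gene network was itself defined with this element, so the shares are not independent of how the genes were chosen. The stretches of the 5 genes with an extended element are shown, with that of Lamp1, which has the most copies of the short one, and all 6 lie under peaks in all 4 libraries. Capitals mark CACGTG or, where its flanks fit, TCACGTGA, and each sequence runs in the direction of transcription.
Ctsa (chr2:164833740-164833802, plus strand): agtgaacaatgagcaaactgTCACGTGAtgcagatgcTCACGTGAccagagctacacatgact
Gla (chrX:134601173-134601253, minus strand): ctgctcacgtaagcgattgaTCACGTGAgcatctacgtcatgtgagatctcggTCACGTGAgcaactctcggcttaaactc
Ctsd (chr7:142387899-142388077, minus strand): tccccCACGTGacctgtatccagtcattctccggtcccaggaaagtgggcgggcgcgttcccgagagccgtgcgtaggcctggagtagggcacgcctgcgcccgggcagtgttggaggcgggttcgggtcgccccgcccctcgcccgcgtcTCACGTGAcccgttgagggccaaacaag
Mcoln1 (chr8:3500428-3500500, plus strand): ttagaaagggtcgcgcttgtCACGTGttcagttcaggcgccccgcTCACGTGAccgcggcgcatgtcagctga
Atg3 (chr16:45158715-45158784, plus strand): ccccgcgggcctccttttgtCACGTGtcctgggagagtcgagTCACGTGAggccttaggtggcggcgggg
Lamp1 (chr8:13159080-13159171, plus strand): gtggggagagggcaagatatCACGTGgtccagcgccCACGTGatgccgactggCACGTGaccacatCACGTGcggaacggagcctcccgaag
Ctsa and Gla each hold 2 extended elements, and Lamp1 holds 4 copies of the short one within its last 61 bases before the start.

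The strength of a peak is its −log10 q as deposited by the authors. It gives the peak's significance over the local background of 1 library, not its fold over that background. Its rank is given as the percentile within the list, where 100 is the strongest peak. A shared region has a peak in all 4 libraries. T1-only regions are those found in each T1 list and absent from each T2 list, and T2-only regions are the reverse.

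Start sites of these genes were open in nearly every library. Of the 28 genes with a listed start, 26 (92.9%) had a shared region there, against 58.4% of all protein-coding genes with a listed start. The windows were RefSeq's 33 starts for these 28 genes, of which 29 lay in shared regions, 1 in a T1-only region, 1 in a peak of a single library and 2 in no peak. The 27 shared regions at listed starts had their summits at a median of 71 bp from the start, and their mean percentile over the 4 libraries ran from 34.3 to 99.8 with a median of 81.4.

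Npc2, whose product carries cholesterol out of the lysosome together with NPC1, had the strongest start. Its −log10 q was 327 and 274 in T1 replicates 1 and 2 and 287 and 259 in T2 replicates 1 and 2, at percentiles of 99.7 to 99.9. Starts of Atg5, Ctsl, Atg3, Lipa and Ctsc also had mean percentiles above 90. At Atg3, an E2-like enzyme of LC3 lipidation, −log10 q was 173 and 143 in T1 and 164 and 109 in T2. The weakest shared start was that of Cd63, a tetraspanin of late endosomes, with 11.4 and 9.77 in T1 and 17.2 and 20.49 in T2. A second region at the 5′ end of the annotated Cd63 gene, 13663 bp upstream of the listed start, had 25.3 and 18.6 in T1 and 40.2 and 31.3 in T2, so both were higher in rank in both T2 libraries.

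Ctss and Atg7 were the 2 exceptions. At Ctss, a cysteine protease of antigen processing, a peak at the start was found in T2 replicate 2 alone (−log10 q 14.0), while a shared region with its summit 2920 bp upstream had 69.5 and 53.6 in T1 and 59.0 and 44.6 in T2. At Atg7, the E1-like enzyme of autophagy, the listed start had no peak, but the annotated 5′ end of the gene lay in a shared region with 59.8 and 33.1 in T1 and 53.5 and 34.8 in T2. The 7 genes with no listed start were Ctsb, Ctsh, Plbd2, Npc1, Atg12, Atg16l1 and Becn1, and each had a shared region within 250 bases of a gene end. The Plbd2 region had 18.7 and 10.4 in T1 and 32.2 and 23.0 in T2, the lowest values of the strongest such region of each gene. The Npc1 region had 165 and 126 in T1 and 153 and 152 in T2.

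**Figure D1:**
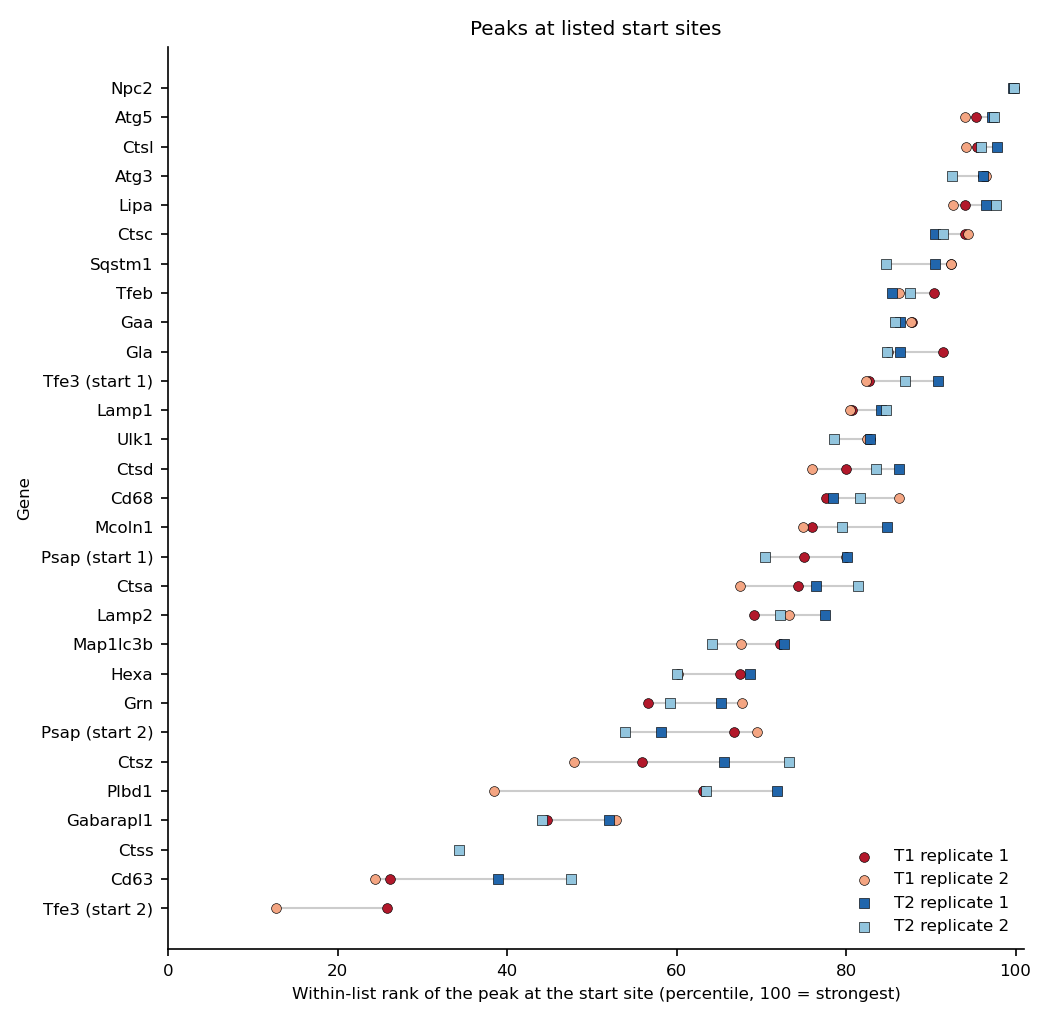
Within-list rank (x axis, percentile, 100 is the strongest peak) of the peak at each listed start site (y axis, by gene), 1 point per library, circles for T1 and squares for T2, with a grey line over the range. Npc2 sits at 99.7 to 99.9 in all 4 libraries, Ctss has a point for T2 replicate 2 alone, and the second listed start of Tfe3 has points for the T1 libraries alone.

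Tfe3 was the 1 gene with a group-only peak at a listed start. TFE3 and TFEB switch on lysosomal and autophagy genes when nutrients are short. The upstream Tfe3 start lay in a shared region with −log10 q of 75.5 and 61.6 in T1 and 115 and 80.3 in T2. The second listed start, downstream of it, lay in a T1-only region (chrX:7763714-7764210) with 11.2 and 6.61 in T1, percentiles of 25.8 and 12.7, and a summit 36 bp from the start. Over all protein-coding genes, 18 of 21263 listed windows were T1-only and 171 were T2-only. The 100 bases before each start and the start base itself, in capitals, are shown to set the shared start beside the T1-only one.
Tfe3 shared start (chrX:7762561-7762661, plus strand): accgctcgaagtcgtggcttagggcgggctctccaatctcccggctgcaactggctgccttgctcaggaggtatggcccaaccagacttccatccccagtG
Tfe3 T1-only start (chrX:7763843-7763943, plus strand): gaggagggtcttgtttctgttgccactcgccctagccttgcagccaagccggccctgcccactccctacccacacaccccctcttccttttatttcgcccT
Neither stretch holds CACGTG, and their GC contents are 62.4% and 60.4%.

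Across all 35 genes, 152 of the 239 regions were shared (63.6%, 95% Wilson interval 57.3 to 69.4), against 58.6% of the 63276 regions near any protein-coding gene. T1-only regions numbered 9 (3.77%, 1.99 to 7.0), where the share near all genes was 2.23%. T2-only regions numbered 11 (4.60%, 2.59 to 8.05), where it was 6.56%. The remaining 67 had other combinations, most often a peak in T2 replicate 1 alone (15 regions) or a peak missing from T1 replicate 2 alone (12 regions). The intervals cover counting error only, and both include the share near all genes. Genes with at least 1 T1-only region numbered 7 (20%, against 8.24% of protein-coding genes), and genes with at least 1 T2-only region numbered 11 (31.4%, against 22.3%), but the listed genes had a median of 7 regions each and all genes a median of 4.

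List length and single libraries move these counts. With each list shortened to the 54045 peaks of the shortest, 211 regions were left near the listed genes. Of these, 12 were T1-only (5.69%, against 4.38% near all genes) and 5 were T2-only (2.37%, against 4.11%). With 1 library left out its partner decides alone, and the shares rise near all genes too. T1-only regions then numbered 17 of 233 without T1 replicate 1 (7.30%, against 4.28% near all genes) and 16 of 231 without T1 replicate 2 (6.93%, against 5.84%). T2-only regions numbered 23 of 233 without T1 replicate 1 (9.87%, against 12.5%). They numbered 18 of 224 without T2 replicate 1 (8.04%, against 11.9%) and 26 of 232 without T2 replicate 2 (11.2%, against 15.1%).

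At start sites and 5′ ends 29 of 31 regions were shared (93.5%), in gene bodies 47 of 80 (58.8%) and in the flanks 76 of 128 (59.4%). The flanks often reach into a neighbour: 73 of the 128 flank regions lay in the body of another protein-coding gene. Of the T2-only regions, 4 did so, at Map1lc3b (in Zcchc14), Hexa (Tmem202), Mcoln1 (Pnpla6) and Plbd2 (Sdsl), and of the T1-only regions none did. When regions were kept only where the listed gene is the nearest, 9 T1-only (5.84%) and 6 T2-only (3.90%) regions were left among 154. The share near all genes was not taken for this setting, so these counts have nothing to be judged against. Group-only regions were narrower and weaker than shared ones, with median widths of 497 bp for T1-only, 341 bp for T2-only and 774.5 bp for shared regions. A region spans all peaks joined into it, and shared regions join peaks of more lists, so widths differ in part by construction. A weak peak is also easier to miss in another list, so the classes themselves favour lower −log10 q in group-only regions. In T1 replicate 1 the median −log10 q was 12.0 for T1-only and 38.9 for shared regions, and in T2 replicate 1 it was 10.9 for T2-only and 45.6 for shared regions.

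**Figure D2:**
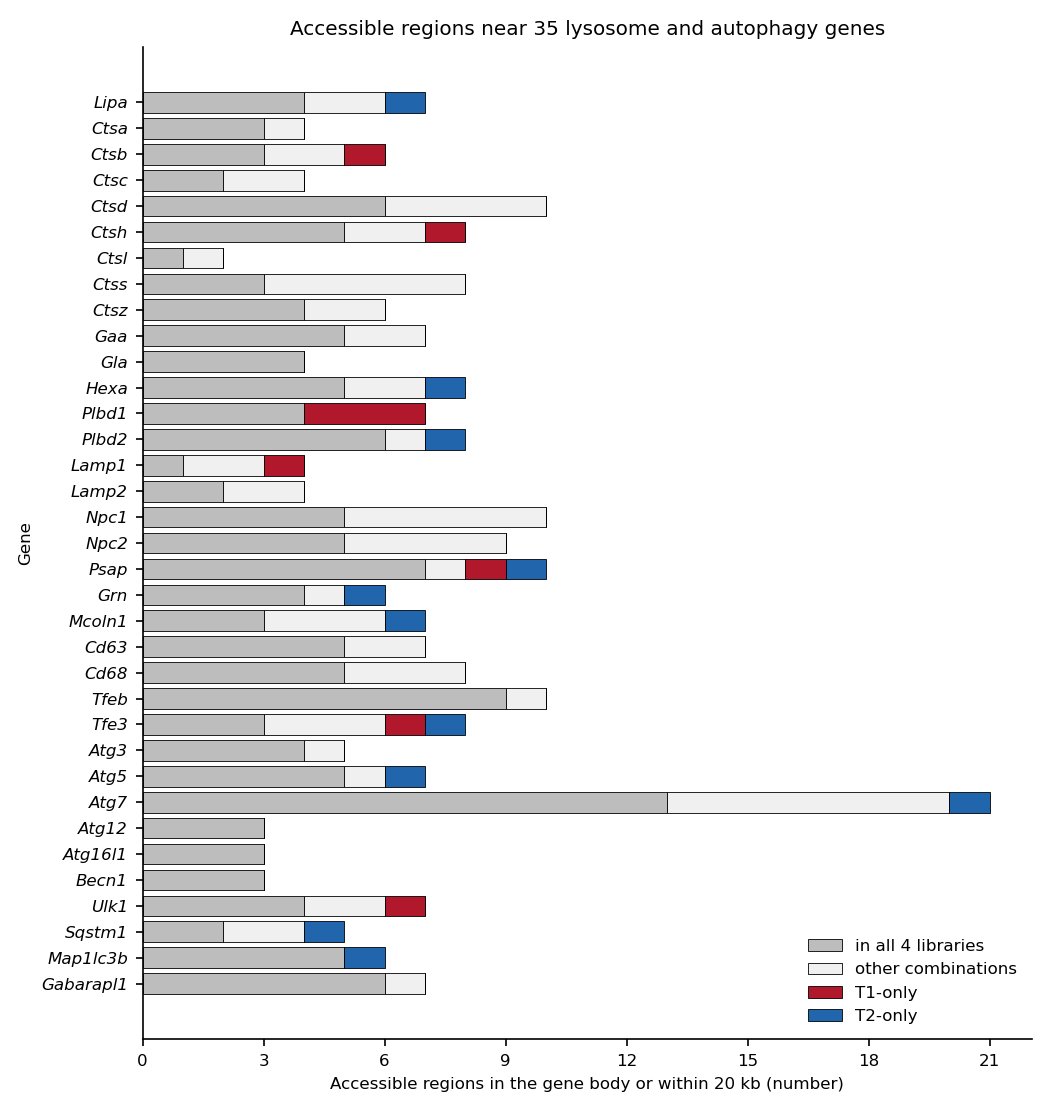
Number of accessible regions (x axis) in the body or within 20 kb of each of the 35 genes (y axis), stacked by the libraries that had a peak: all 4, other combinations, T1-only and T2-only. Plbd1 has 3 T1-only regions and Psap and Tfe3 have 1 region of each group-only kind, while Atg7 has the most regions, 21.

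Among the hydrolases, 5 regions were T1-only (5.62%) and 3 were T2-only (3.37%) out of 89. Plbd1, a lysosomal phospholipase B-like protein, held 3 of the T1-only regions and no T2-only one. Inside the gene, chr6:136654342-136654857 had −log10 q of 23.9 and 18.7 in T1 replicates 1 and 2, and chr6:136645532-136646028 had 12.0 and 12.0. The third, chr6:136668415-136668792, had its summit 6769 bp upstream of the start, with 9.39 and 7.63. The T2 libraries had no peak in any of the 3. The other 4 Plbd1 regions were shared, and the start itself had 34.8 and 14.9 in T1 and 48.4 and 32.7 in T2, so the start did not follow the T1-only regions. The T1-only count at Plbd1 stayed ahead of the T2-only count by 2 or 3 under the 12 other settings tried.

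Ctsh, a cysteine protease with aminopeptidase activity, had the strongest T1-only region, chr9:90042823-90043350, 10917 bp outside the gene, with 32.5 and 18.4 in T1. The shared region at the lower-coordinate end of Ctsh (chr9:90054112-90055108) ranked higher in T2, with 66.2 and 47.1 in T1 and 84.6 and 76.1 in T2. Ctsb, an abundant cysteine protease, had a T1-only region inside the gene, chr14:63129105-63129422, with 17.9 and 13.7.

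On the T2 side the strongest group-only region of the 20 lay inside Lipa, the acid lipase that hydrolyses cholesteryl esters and triglycerides. Its position, chr19:34500737-34501077, has its summit 26499 bp downstream of the start. The T2 replicates had −log10 q of 64.8 and 62.5, at percentiles of 79.2 and 81.6, and neither T1 library had a peak. A peak of like strength can also be missing within a group. Near Hexa, chr9:59567240-59567581 had 60.3 in T1 replicate 1, no peak in T1 replicate 2, and 71.0 and 67.7 in T2. The Lipa start had −log10 q of 171 and 165 in T2 against 144 and 106 in T1, and ranked higher in both T2 libraries. Its deposited fold over background overlapped between groups, at 18.7 and 18.8 in T1 and 17.7 and 19.9 in T2. Hexa, the alpha subunit of beta-hexosaminidase, had a T2-only region with its summit 16568 bp upstream of its start and within Tmem202 (chr9:59522793-59523206), with 11.9 and 12.3. At Plbd2 a weak T2-only region (chr5:120467018-120467336), 16557 bp outside the gene and within Sdsl, had 3.90 and 4.06. At equal list length, or with −log10 q of at least 5, the T2-only minus T1-only count at Plbd2 was 0.

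The other 8 enzymes, Ctsa, Ctsc, Ctsd, Ctsl, Ctss, Ctsz, Gaa and Gla, had no group-only region. They encode the protective carboxypeptidase, 5 further cathepsins, acid alpha-glucosidase and alpha-galactosidase A. They had between 1 (Ctsl) and 6 (Ctsd) shared regions each. At the Ctsd start, which carries an extended element, −log10 q was 66.2 and 46.9 in T1 and 89.7 and 68.2 in T2. At the Gla start it was 121 and 69.5 in T1 and 90 and 72.4 in T2, so the 2 groups overlapped there.

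**Figure D3:**
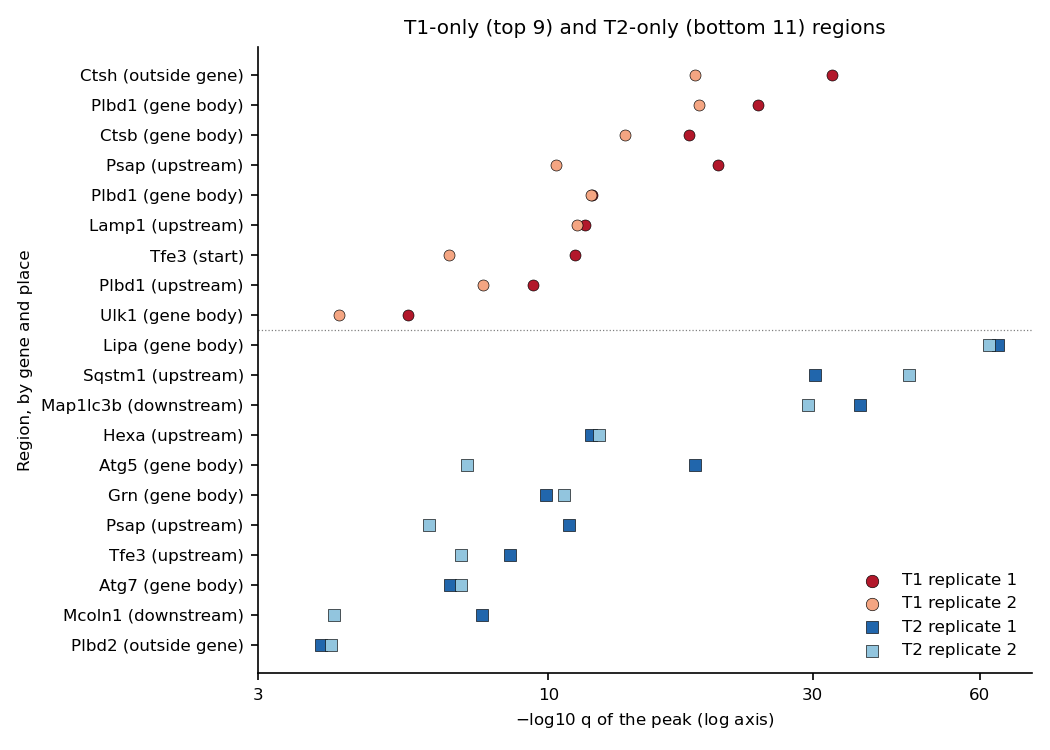
−log10 q (x axis, log scale) of the 9 T1-only and 11 T2-only regions (y axis, named by gene and place), 1 point per library that had a peak, circles for T1 and squares for T2. The Lipa region lies farthest right at 64.8 and 62.5, ahead of Sqstm1 and Map1lc3b, and Ctsh leads the T1-only regions.

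Membrane proteins, lipid carriers and cofactors had 2 T1-only (3.08%) and 3 T2-only (4.62%) regions out of 65. Psap encodes prosaposin, the precursor of the saposins that present sphingolipids to hydrolases. Its upstream flank held 1 region of each kind, T1-only at chr10:60260358-60260843 with 20.3 and 10.3, and T2-only at chr10:60269687-60269966 with 10.9 and 6.10. Between that flank and the start a shared region with its summit 3831 bp upstream of the start (chr10:60273466-60274189) had 31.1 and 22 in T1 and 10.9 and 9.24 in T2. Inside the gene, chr10:60289999-60290810 went the other way, with 10.1 and 12.3 in T1 and 46.0 and 18.9 in T2. The upstream listed Psap start overlapped between groups, with 53.6 and 55.3 in T1 and 67.0 and 40.9 in T2. The second listed start (chr10:60283985-60285202) ranked higher in both T1 libraries, with 39.3 and 37.1 in T1 and 30.5 and 24.5 in T2. Psap thus had regions that ranked higher in each group within 1 locus.

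Lamp1, a main glycoprotein of the lysosomal membrane, had a T1-only region with its summit 3640 bp upstream of its start (chr8:13155324-13155639), with 11.6 and 11.3. Its start, with the 4 E-boxes printed above, had 68.3 and 56.3 in T1 and 80.4 and 71.8 in T2. Grn, which encodes progranulin, had a T2-only region 704 bp after its start (chr11:102430921-102431302), with 9.90 and 10.7, beside a shared start with 28.2 and 34.9 in T1 and 38.1 and 28.7 in T2. Mcoln1, a cation channel that releases lysosomal calcium, had a T2-only region in its downstream flank and within Pnpla6 (chr8:3522222-3522514), with 7.6 and 4.11. The T2-only count at Mcoln1 was no longer ahead in 7 of the 12 other settings, among them equal list length and −log10 q of at least 5. Lamp2, Npc1, Npc2, Cd63 and Cd68 had no group-only region. At Cd68, a lysosomal glycoprotein used as a macrophage marker, the start had 59.8 and 74.3 in T1 and 62.9 and 62.6 in T2, so the groups overlapped.

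The 2 transcription factor genes differed in how many of their regions were shared. Tfeb had 9 shared regions of 10 and no group-only one, and the region over 2 of its 3 listed starts had 114 and 74.5 in T1 and 85.5 and 82.8 in T2. Tfe3 had 3 shared regions of 8. Beside the T1-only second start it had a T2-only region with its summit 11948 bp upstream (chrX:7750559-7750901), with 8.55 and 6.95. The T2-only minus T1-only count at Tfe3 was 0, but -1 at equal list length and 3 without T2 replicate 2.

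Autophagy genes had 1 T1-only (1.49%) and 4 T2-only (5.97%) regions out of 67, and 48 shared regions (71.6%). At equal list length the T2-only minus T1-only count was 0 at Atg5, Atg7 and Ulk1 and 1 at Sqstm1 and Map1lc3b, and with nearest genes it was 0 at Map1lc3b. Sqstm1 encodes a receptor that carries ubiquitinated cargo to the autophagosome. A T2-only region with its summit 2410 bp upstream of its start (chr11:50213076-50213628) had −log10 q of 30.3 and 44.7 in T2, at percentiles of 57.9 and 72.9. The Sqstm1 start went the opposite way in rank, with 130 and 104 in T1 and 112 and 72.0 in T2, percentiles of 92.4 and 92.3 against 90.5 and 84.7.

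Map1lc3b encodes an LC3 protein that is lipidated onto the autophagosome. Its T2-only region lay 260 bp past the end of the gene and within Zcchc14 (chr8:121599020-121599338), with 36.4 and 29.4. Its start had 47.8 and 34.8 in T1 and 49.7 and 33.4 in T2, and 3 other shared regions, all upstream, ranked higher in both T1 libraries. Of these, chr8:121570130-121571062 and chr8:121578198-121579436 lay within Fbxo31. Atg5, which is joined to ATG12 in the conjugation complex, had a T2-only region 68646 bp after its start (chr10:44336716-44337153), with 18.4 and 7.14. Atg7 had a T2-only region in its body (chr6:114797929-114798241), with 6.64 and 6.95. The 1 T1-only region, inside the kinase gene Ulk1 (chr5:110800629-110801343), was the weakest T1-only region of all, with 5.57 and 4.19. The strongest autophagy region was a shared one downstream of Ulk1 and within Ep400 (chr5:110770128-110771165), with 302 and 219 in T1 and 283 and 190.1 in T2. Atg3, Atg12, Atg16l1, Becn1 and Gabarapl1 had no group-only region, and at Atg12, Atg16l1 and Becn1 each of their 3 regions was shared.

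**Figure D4:**
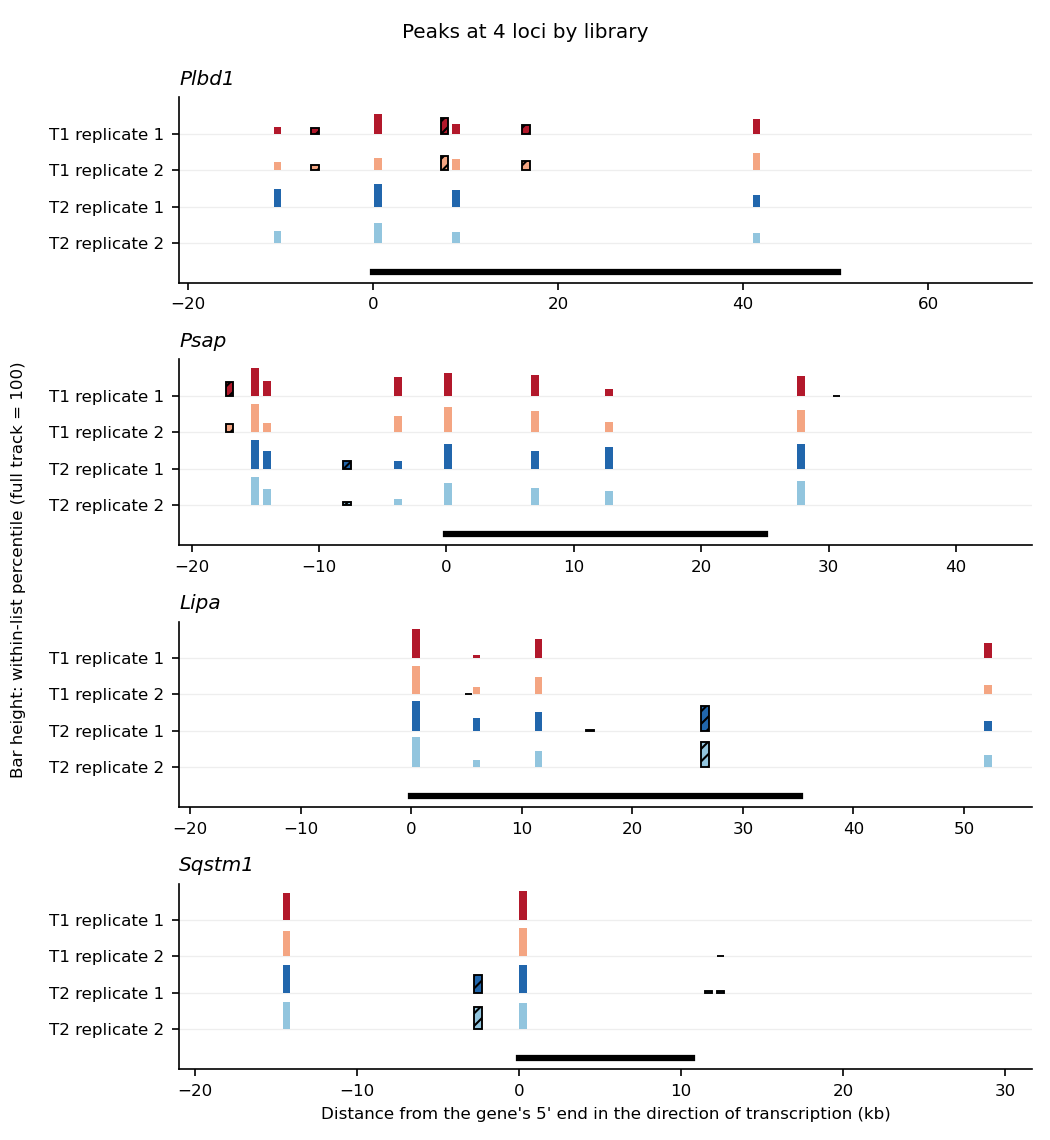
Peaks of each library (rows) at Plbd1, Psap, Lipa and Sqstm1 by distance from the gene's 5′ end in kb (x axis), with bar height as the within-list percentile and the gene as a black line. Hatched bars are T1-only or T2-only regions and outlined bars without hatching are other combinations, so the 3 hatched Plbd1 regions appear in the T1 rows alone and the hatched Lipa and Sqstm1 regions in the T2 rows alone.

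Shared regions were then compared by rank. Within-list percentiles were higher in both T1 libraries at 34 of 152 shared regions (22.4%, against 14.3% near all genes) and higher in both T2 libraries at 55 (36.2%, against 39.8%). A shared region gains percentile in a longer list, and the T2 lists are longer. Ranks were therefore also taken among the regions shared by all 4 libraries, which are equally many in each. On that scale 46 regions ranked higher in both T1 libraries (30.3%, against 26.6%) and 38 in both T2 libraries (25%, against 25.7%), so the larger side changed. The median difference, T2 mean minus T1 mean, was −0.28 percentile points near the listed genes and −0.09 near all genes. Without T1 replicate 2, 54 regions had a higher within-list rank in T1 (32.9%, against 27.0% near all genes), and without T2 replicate 1 also 54 (35.5%, against 28.3%). Without T2 replicate 2, 85 had a higher one in T2 (54.8%, against 56.2%).

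By within-list percentile, the 5 regions with the widest gap towards T1 were at Ctsz, Psap, Npc2, Atg12 and Npc1. Inside Ctsz, a cysteine carboxypeptidase, chr2:174437429-174438094 had −log10 q of 50.6 and 22.5 in T1 and 7.68 and 9.62 in T2. Its percentiles among shared regions were 65.2 and 44.0 against 2.94 and 8.21, while the Ctsz start ranked higher in T2, with 27.6 and 19.3 in T1 and 38.6 and 45.4 in T2. The Psap region was the upstream one given above. Inside Npc2, chr12:84762546-84762902 had 18.9 and 13.0 in T1 and 5.48 and 5.65 in T2, and 4 of the 5 shared Npc2 regions ranked higher in T1, the start among them. The margin at the Npc2 start was small, with within-list percentiles of 99.83 and 99.87 in T1 and 99.70 and 99.79 in T2. Its deposited fold over background overlapped between groups, at 19.99 and 20.44 in T1 and 18.57 and 20.64 in T2. Near Atg12 and within Ap3s1, chr18:46745708-46746213 had 61.5 and 42.9 in T1 and 25.1 and 23.0 in T2. Inside Npc1, the membrane transporter that exports cholesterol, chr18:12213731-12214383 had 36.9 and 21.2 in T1 and 11.7 and 13.0 in T2. These 5 also ranked higher in both T1 libraries among shared regions.

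By the same measure, which favours the longer T2 lists, the 5 widest gaps towards T2 were at Atg7, Atg3, Atg5 (2 regions) and Plbd2. Inside Atg7, chr6:114839516-114840600 had 9.31 and 6.68 in T1 and 22.7 and 18.5 in T2. Downstream of Atg3, chr16:45204575-45205391 had 12.0 and 15.8 in T1 and 30.9 and 29.4 in T2. The 2 Atg5 regions lay in the gene on either side of its T2-only region. The first, chr10:44321737-44322444, had 9.99 and 7.35 in T1 and 17.9 and 20.6 in T2, and the second, chr10:44341610-44342382, had 31.5 and 13.2 in T1 and 58.5 and 49.8 in T2. Outside Plbd2 and within Sdsl, chr5:120465773-120466368 had 34.0 and 37.4 in T1 and 109 and 73.5 in T2. These 5 ranked higher in both T2 libraries on the other scale too, where a region downstream of Grn and within Itga2b (chr11:102455673-102456520) had a wider gap, 15.2 points, than the Atg3 region (9.26) and the first Atg5 region (8.73). That Grn region, named after its values were seen, had 64.0 and 47.6 in T1 and 123 and 117 in T2.

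By role, ranks among shared regions were higher in T1 at 13 (23.6%) and in T2 at 16 (29.1%) of 55 hydrolase regions, where the shares near all genes were 26.6% and 25.7%. They were higher at 10 (27.0%) and 10 of 37 regions of membrane proteins, carriers and cofactors. For the 2 transcription factor genes the counts were 4 (33.3%) and 3 (25%) of 12. For autophagy genes they were 19 (39.6%) and 9 (18.75%) of 48, and on the within-list scale 14 (29.2%) and 16 (33.3%), against 14.3% and 39.8% near all genes. All 3 shared regions of Atg16l1, which directs LC3 lipidation, ranked higher in T1 among shared regions, and 4 of 5 at Map1lc3b did. Atg5 went the other way, with 2 higher in T1 and 3 in T2, as did Becn1, with 0 and 1. The lean of the autophagy genes was not repeated in 33 further autophagy genes outside the list. There, 39 (28.7%) and 36 (26.5%) of 136 shared regions ranked higher in T1 and T2 on that scale. For genes of the V-ATPase proton pump, also outside the list, the counts were 19 (40.4%) and 8 (17.02%) of 47. At starts and 5′ ends, 10 regions ranked higher in T1 and 9 in T2 on this scale.

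**Figure D5:**
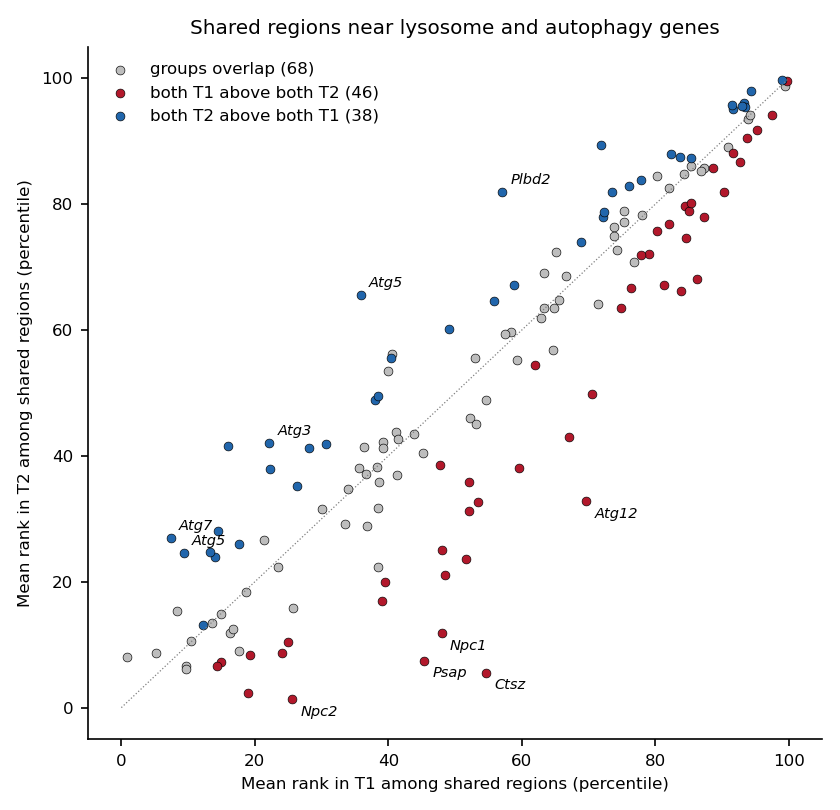
Mean rank of the 152 shared regions in T1 (x axis) and T2 (y axis), as percentiles among the regions shared by all 4 libraries, coloured by whether both libraries of a group ranked above both of the other. The points below the diagonal include Ctsz, Psap, Npc1, Npc2 and Atg12, and the counts are 46 for T1, 38 for T2 and 68 for overlapping groups.

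Another 109 genes of the same pathways had 12 T1-only (1.69%) and 44 T2-only (6.21%) regions out of 708, where the shares near all genes were 2.23% and 6.56%. At least 1 T1-only or T2-only region lay near 41 of the 109 genes and near 6037 of all 21887 protein-coding genes. The median number of regions per gene was 6 for the 109 and 4 for all genes. Subunits of the V-ATPase, the proton pump that acidifies lysosomes, had 2 T1-only (2.41%) and 5 T2-only (6.02%) regions at 5 of 16 genes, with 1 T2-only and no T1-only region each at Atp6v0b, Atp6v1e1 and Atp6v1g1. Other lysosomal hydrolases and membrane proteins had 5 (2.27%) and 17 (7.73%) at 15 of 36 genes. Galns, a sulfatase, held 3 of those T1-only regions, while Slc38a9, an arginine sensor, had 2 T2-only regions. Genes of nutrient sensing and mTORC1 had 1 T1-only (0.52%) and 14 T2-only (7.33%) regions at 12 of 24 genes, which had a median of 6.5 regions each, 2 T2-only each at Fnip2 and Rptor and 1 at Lamtor5. Other autophagy genes had 4 (1.82%) and 8 (3.64%) at 9 of 33 genes, 2 T2-only each at Rab7 and Atg10 and 1 at Atg2b.

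The cell label was compared with marker genes. Of 10 genes of MPP3 and early myeloid progenitors, 8 had a listed start. Of these, 7 were open in all 4 libraries, Kit, Cd34, Cd48 and Cebpa among them, while the Mpo start was T2-only. The list had 5 T1-only (5.68%) and 7 T2-only (7.95%) regions out of 88, where the shares near all genes were 2.23% and 6.56%. Macrophage genes, which share this lysosomal programme, had a shared region at 3 of 7 listed starts, and Timd4 and Vcam1 had no region. The macrophage list had 0 T1-only and 2 T2-only (5.41%) regions out of 37. Among shared regions, 4 of the 20 macrophage regions ranked higher in T1 (20%) and 6 in T2 (30%), against 26.6% and 25.7% near all genes. Of 49 shared MPP3 and early myeloid regions, 20 ranked higher in T1 (40.8%) and 10 in T2 (20.4%). Of mature neutrophil genes, 1 of 7 listed starts was open in all 4 libraries. The neutrophil list had 3 T1-only regions (7.14%) and 1 T2-only region (2.38%) out of 42. Of its 25 shared regions, 6 ranked higher in T1 (24%) and 7 in T2 (28%). Lymphocyte and erythroid genes had 0 of 5 and 0 of 3 listed starts open in all 4, and genes of non-blood tissues had 3 of 4. Of all protein-coding genes with a listed start, 58.4% had a shared region there. Each marker list holds few genes and few group-only regions. The part of other cells in the counts above was not tested.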

How the data were processed

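The 4 deposited peak lists were made with Bowtie2, SAMtools and MACS2 on mm10, per the submitters' processing notes. Their versions and settings were not given in the sources used here, nor was any pooling. Each list's peak names carry 1 library prefix. In MACS2's column order, the deposited fold is a ratio over local background, and the deposited −log10 p and −log10 q give significance over it, and no −log10 q was below 2.00. The deposited score, which repeats −log10 q in whole numbers, was not used. Read counts do not enter these lists, so count models were not run.

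Peaks on 21 chromosomes were kept (53 others dropped) and joined across lists where they shared 1 bp. A library's strongest peak stands for it in a region. Gene bodies and start windows came from RefSeq tables (GRCm38.p6). All 35 symbols matched a protein-coding gene and 28 a start window. Shares are set beside those of all regions within 20 kb of a protein-coding gene. Scripts (Python 3.11.15, pandas 2.3.3, NumPy 2.4.6, SciPy 1.17.1) were tested on simulated lists.

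Members and lists were chosen with earlier results of these data known. Named were every group-only region, the 5 shared regions per direction with the widest gap between groups in percentile, the strongest regions, starts without peaks, and up to 3 genes per further list. Alternatives were stricter peaks, equal list length, at least 0.5 coverage of a region, flanks of 5 and 50 kb, each library left out, and, chosen after seeing the data, peaks present at −log10 q of at least 5 and absent at any level, and nearest genes.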

Additional observations from a re-analysis of the deposited data

How the results depend on the processing

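T1-only regions near the 35 genes numbered 9, and 20 with flanks of 50 kb (4.89%, against 2.25% near all genes). T2-only regions numbered 11, and 5 at equal list length (2.37%, against 4.11%), 6 with flanks of 5 kb (3.97%, against 6.30%), 22 with 50 kb (5.38%, against 6.64%) and 6 where the gene is the nearest (3.90%). No share near all genes is given for the nearest-gene setting. Shared regions numbered 152, and 99 with flanks of 5 kb (65.6%, against 59.8%), 253 with 50 kb (61.9%, against 57.9%) and 98 with nearest genes (63.6%). Regions with a higher within-list rank in T2 numbered 55, and 35 at equal list length (24.6% of shared regions, against 25.1%). They numbered 33 with 5 kb (33.3%, against 39.3%) and 102 with 50 kb (40.3%, against 40.2%). Wider or narrower flanks change how many regions are counted (409 and 151 in all). Leaving out 1 library gave 9 to 17 T1-only and 15 to 26 T2-only regions, and 152 to 164 shared ones, with 41 to 54 regions ranked higher in T1 and 63 to 85 in T2. Stricter peaks, 0.5 coverage and presence at −log10 q of at least 5 left all 5 counts within 1.5 times. Of the 14 genes with more regions of one kind than the other, Ctsh alone changed direction: T2-only minus T1-only regions there ranged from -1 to 1 with 1 library left out, and was 1 without T2 replicate 2. At Psap and Tfe3, with 1 region of each kind, it ranged from -1 to 0 and from -1 to 3 over the 12 settings. It fell to 0 in 7 settings at Mcoln1 and in 6 each at Plbd2 and Ulk1. Over the 16 genes with a group-only region it kept its value at 13 with −log10 q of at least 5, at 8 with at least 10 and at 9 at equal list length. No paired analysis was possible because the results come from no test and the labels tie replicate numbers to no shared animal or day. Depth is unknown, so a missing peak may be a site below the calling threshold.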
